A study of Mus musculus with 163 samples.

Results

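Potassium channel genes were taken as all genes of the deposited table whose symbol begins with *Kcn*, which gave 58 of its 12187 genes. RefSeq annotates 94 protein-coding mouse genes with such a symbol, and those outside the table were not analysed here. The cells were all the MBH Pos neurons of the table, GFP-positive cells sorted from the mediobasal hypothalamus, with 1 sequencing library per cell. They came from young adult male mice of the strain C57/BL6 Tg(Pomc-EGFP)1Low, which had free access to food and received no treatment. Every cell carried the same transgene, enhanced GFP under *Pomc* regulatory sequences, so a cell entered the study by its GFP and not by its own *Pomc* level. The cells were split at 2 limits that use no potassium channel gene. The 48 cells above 10 log2RPM of *Agrp* are called Agrp-high and all others Agrp-low, and the Agrp-low cells were divided into 34 Pomc-high cells above 12 log2RPM of *Pomc* and 81 Pomc-lower cells. These are ranges of a level and not cell types. The lowest *Agrp* above its limit was 10.12 log2RPM and the highest below it 9.99, with 8 cells within 1 of the limit. For *Pomc* the levels next to the limit were 12.20 and 11.91 log2RPM, with 13 Agrp-low cells within 1 of it.

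Potassium channels let K+ leave the cell and so pull the membrane away from the firing threshold. Voltage-gated (Kv) channels repolarise the action potential and space successive spikes, calcium- and sodium-activated channels follow the ions that enter during firing, inward rectifiers such as the GIRK channels open when inhibitory receptors release G protein subunits, and the tandem-pore K2P channels carry the resting leak. In the arcuate nucleus, AgRP neurons drive feeding and POMC neurons restrain it, and both are known to be silenced or released through such conductances.

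Each level is a log2RPM value, a base-2 logarithm of a gene's reads scaled to library size (RPM), with a common lowest value of -0.91 log2RPM (0.532 RPM) that stands for 0 reads. A gene was counted as expressed in a cell at 5 RPM or more. RPM is not divided by gene length, so levels are compared between genes only as RPM per kb of annotated exon. The labels tie no cell to an animal or a batch, so all cells together count as 1 sample and no test was possible. SDs are spreads over cells, no p-value is given, and a gene is called higher or lower where mean log2RPM differs by at least 1. Ranges beside shares of cells are 95% intervals by the exact method of Clopper and Pearson and cover no error beyond counting.

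Depth over the table's genes ran from 1.46 to 41.9 M reads per cell, with medians of 8.45 M in Agrp-high, 8.13 M in Pomc-high and 7.88 M in Pomc-lower cells. The neuron markers *Snap25*, *Map2*, *Stmn2* and *Ncam1* were expressed in 100% of cells of every range. Of 9 neuron markers, *Elavl4* was higher (1.06) and *Rbfox3* lower (-1.61) in Agrp-high than in Agrp-low cells, and *Syt1* was lower in Pomc-high than in Pomc-lower cells (-4.58). The summed neuron marker level had medians of 3921 RPM in Agrp-high, 4724 RPM in Pomc-high and 5154 RPM in Pomc-lower cells. Markers of other cell types also differed: *Mag* (1.56) and *Tbx19* (-1.11) between Agrp-high and Agrp-low cells, and *Vim* (2.13), *Tbx19* (1.21), *Fabp7* (-1.22) and *Olig1* (-1.02) between Pomc-high and Pomc-lower cells. At least 3 markers of 1 other cell type were present in 6 Agrp-high, 5 Pomc-high and 6 Pomc-lower cells. Only the oligodendrocyte list (4 genes) and the pituitary list (3 genes) were long enough for that rule. The oligodendrocyte precursor, astrocyte and tanycyte lists held 2 genes each, so they could mark no cell. The part of any of these markers or cells in the results was not tested. Microglial and endothelial markers were not analysed here.

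A neuron expressed many potassium channel genes at once. Agrp-high cells expressed a median of 21 of the 58 (12 to 28), Pomc-high cells 18.5 (8 to 30) and Pomc-lower cells 18 (7 to 35). The 3 spans overlapped over most of their length. The number followed the total number of genes in a cell, with a Spearman correlation of 0.72 over all cells, which share 1 table and 1 detection limit. Medians of all genes per cell were 7286.5 in Agrp-high, 7132.5 in Pomc-high and 6853 in Pomc-lower cells, and *Kcn* genes made up a median of 0.29%, 0.27% and 0.27% of them.

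At the limit of 5 RPM, most potassium channel genes were expressed in a minority of the neurons. The share of cells expressing a member ran from 5.52% to 91.4% with a median of 26.1%, against 57.1% over all genes of the table. *Kcnk2* alone reached 90% of cells, 14 members including it reached 50%, 34 lay between 10% and 50%, and 10 fell under 10%. The 10 were *Kcna1*, *Kcna2*, *Kcnab3*, *Kcns2*, *Kcnv1*, *Kcnq3*, *Kcnh5*, *Kcnj12*, *Kcnj14* and *Kcnk6*. Every gene of the table reaches 5 RPM in at least 7 cells, so a channel gene of still fewer neurons could not have been seen. Per kb of exon, the highest means over all cells were those of *Kcnk1* (26.2 RPM per kb), *Kcnip4* (21.6), *Kcnk2* (20.7), *Kcnip1* (20.2), *Kcnip3* (13.8) and *Kcnd2* (12.9), so leak channels and the Kv4 complex headed that order. The lowest means were those of *Kcnq3* (0.188 RPM per kb) and *Kcna2* (0.232 RPM per kb). A mean of RPM can rest on high values in a part of the cells. *Kcnip3* was expressed in 31.9% and *Kcnk1* in 65.6% of all cells.

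**Figure D1:**
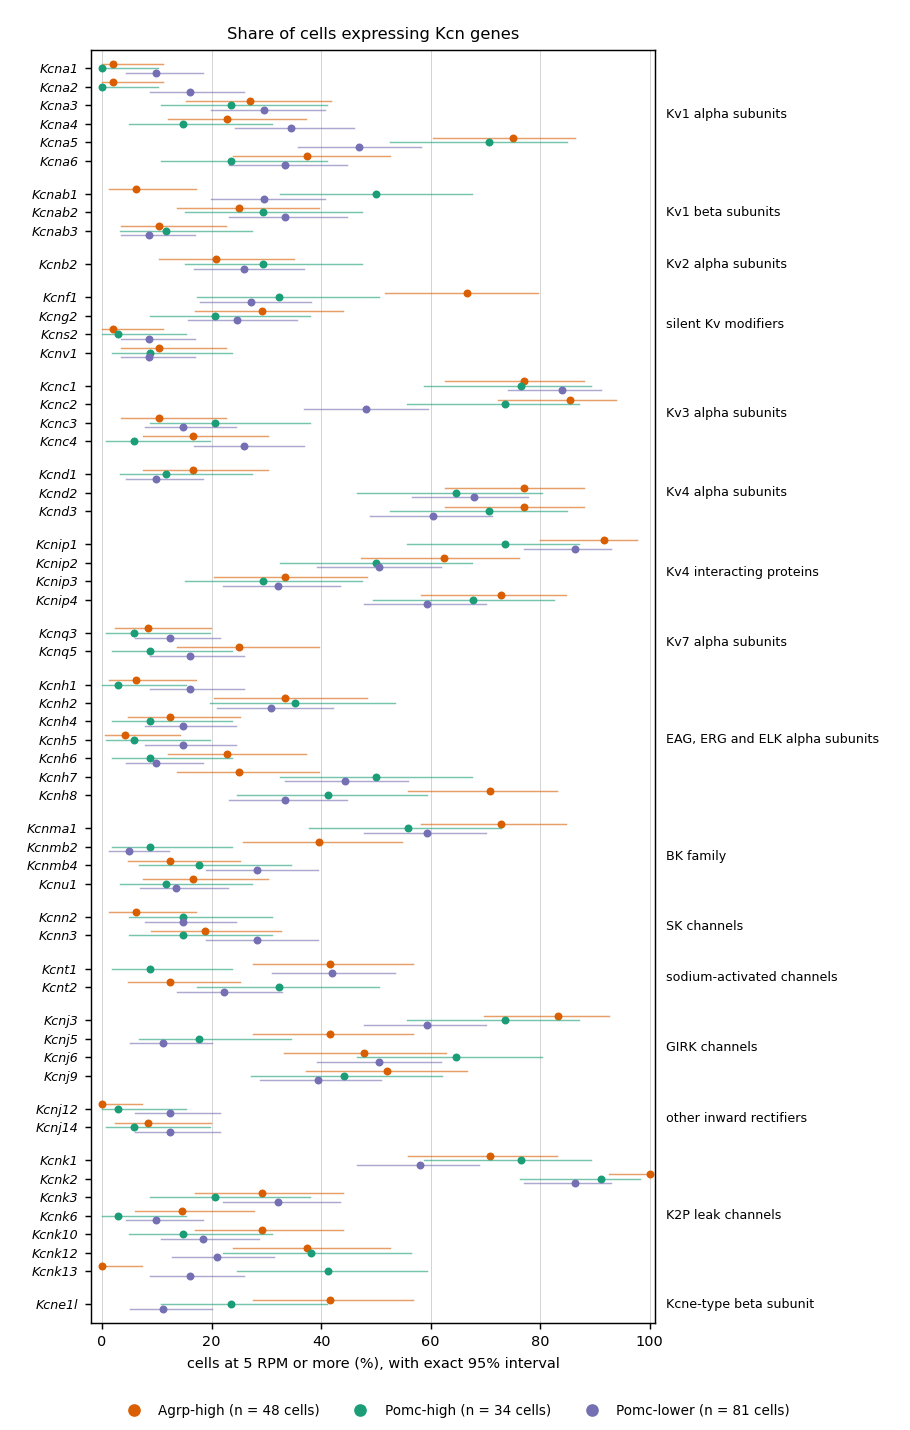
Share of cells at 5 RPM or more (%) for the genes reported, grouped by role, in Agrp-high (48), Pomc-high (34) and Pomc-lower (81) cells. Points are shares and lines exact 95% intervals, and *Kcnk2* stands at 100% of Agrp-high cells while *Kcnk13* stands at 0% of them.

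Agrp-high neurons had more of some channel genes and less of a few others. Of the 58 genes, 9 (15.5%) were higher in Agrp-high than in Agrp-low cells, where 8.65% of all genes were. Another 3 (5.17%) were lower, beside 2.94% of all genes. The median difference over the members was 0.14, with 32 above 0 and 26 below, against 0.19 over all genes. The 9 were *Kcnmb2*, *Kcnf1*, *Kcnj5*, *Kcnc2*, *Kcnh8*, *Kcne1l*, *Kcnk2*, *Kcnip4* and *Kcna5*, and the 3 were *Kcnab1*, *Kcnk13* and *Kcnh7*. They belong to different subfamilies, with no more than 1 higher and 1 lower gene in any of the 16.

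Fewer members differed between Pomc-high and Pomc-lower neurons. Higher in Pomc-high cells were 5 members (8.62%), *Kcnk13*, *Kcnk1*, *Kcnc2*, *Kcna5* and *Kcnj3*, where 4.5% of all genes were higher. Lower were 3 (5.17%), *Kcnt1*, *Kcna4* and *Kcnc4*, beside 5.1% of all genes. The members' median difference was -0.14, against -0.03 over all genes. *Kcnc2* and *Kcna5* were higher in both comparisons, which share the Pomc-high and Pomc-lower cells. Of the 58 genes, 41 stayed under 1 in both, and *Kcna2* (-0.99) was just under it in Pomc-high cells. *Kcnk2*, higher in the first comparison, was just under 1 in the second (0.99).

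**Figure D2:**
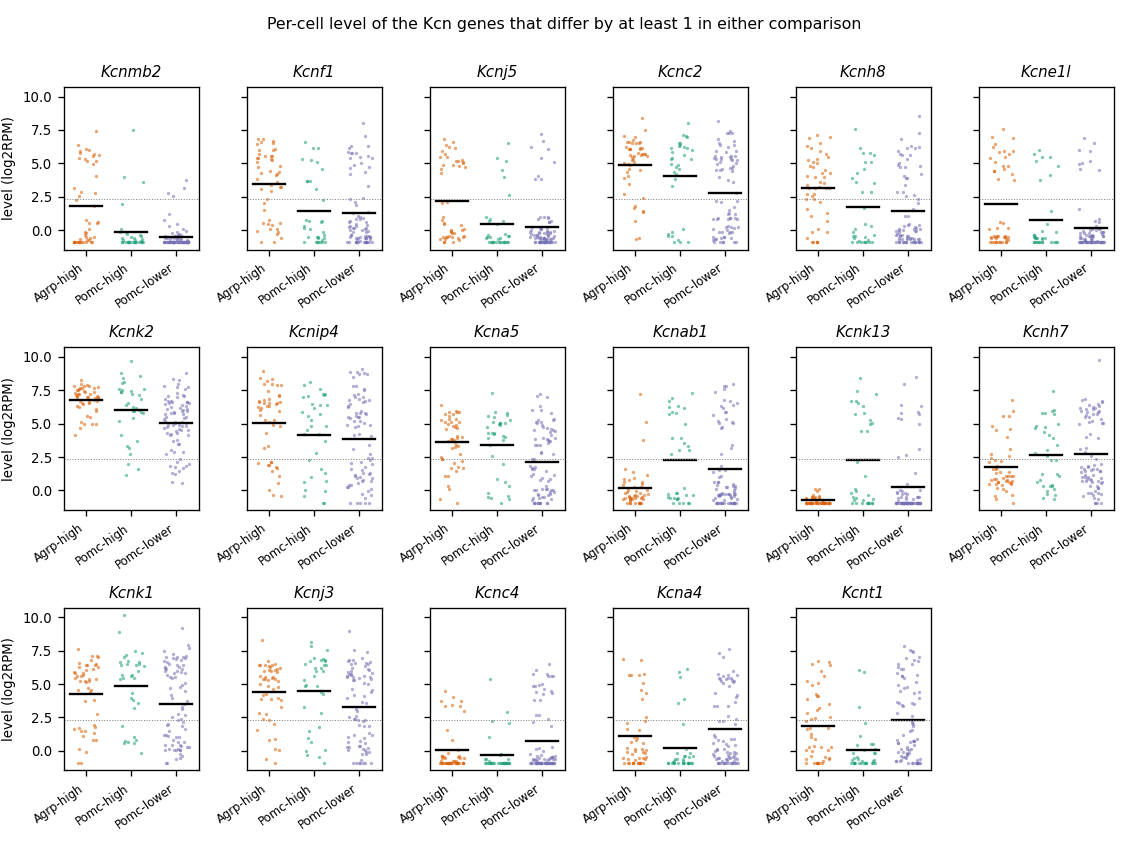
Level in log2RPM of the 17 genes that differ by at least 1 in either comparison, 1 point per cell, in Agrp-high (48), Pomc-high (34) and Pomc-lower (81) cells. Black lines are means and the dotted line is 5 RPM, and *Kcnk13* has no Agrp-high cell above 0.13 log2RPM.

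The K2P leak channels and the Kv4 interacting proteins were the most widely held subfamilies, in 98.2% and 97.5% of all cells. At least 1 of the 7 K2P genes was expressed in 100% of Agrp-high cells (92.6% to 100%), 100% of Pomc-high cells (89.7% to 100%) and 96.3% of Pomc-lower cells (89.6% to 99.2%). *Kcnk2* (ENSMUSG00000037624, chr1:189207930-189343832), a leak channel opened by stretch and by lipids, ran from 4.14 to 8.29 log2RPM with a median of 7.02 in Agrp-high cells, against 0.58 to 9.69 with a median of 5.77 in Agrp-low cells. The lowest Agrp-low cells lay far under the lowest Agrp-high cell, while the upper ends overlapped. Means were 6.80 ± 0.98 in Agrp-high and 5.34 ± 2.08 log2RPM in Agrp-low cells, a difference of 1.46. The SD of 0.98 over Agrp-high cells was the narrowest of the 17 genes past 1 in either comparison except that of *Kcnk13*, which was near the lowest value there. *Kcnk2* was expressed in 100% of Agrp-high cells, 91.2% of Pomc-high cells and 86.4% of Pomc-lower cells. Of its annotated exon bases, 12.2% are also exon of the antisense gene *A430027H14Rik*, and the library kit does not mark strand.

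*Kcnk13* (ENSMUSG00000045404, chr12:99964498-100062682), a leak channel closed by halothane, showed the opposite order. It reached 5 RPM in 0 of 48 Agrp-high cells, which allows a share of up to 6.25% by a limit of 3 cells and of 7.40% by the exact interval, against 27 Agrp-low cells (23.5%, 16.1% to 32.3%). Its values ran from -0.91 to 0.13 log2RPM with a median of -0.91 in Agrp-high cells, against -0.91 to 8.50 with a median of -0.91 in Agrp-low cells. The medians were equal at the lowest value, so the difference of -1.61 in means came from the minority of Agrp-low cells that held the gene. Among these, Pomc-high cells stood out: 14 of 34 expressed *Kcnk13* (41.2%, 24.6% to 59.3%), against 13 of 81 Pomc-lower cells (16.05%, 8.83% to 25.9%), with a difference of 1.99. In expressing cells the median level was 6.05 log2RPM in Pomc-high and 5.76 in Pomc-lower cells, so the 2 ranges differed in how many cells held the gene more than in its level there.

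*Kcnk1* (ENSMUSG00000033998, chr8:125995101-126030683), a weakly conducting member of the same family, ran from -0.18 to 10.17 log2RPM with a median of 5.64 in Pomc-high cells, against -0.91 to 9.17 with a median of 3.53 in Pomc-lower cells. The ranges overlapped almost wholly, and the means of 4.84 ± 2.68 and 3.54 ± 2.85 log2RPM differed by 1.30. Per kb of exon it averaged 20.4 RPM in Agrp-high, 44.8 in Pomc-high and 21.8 in Pomc-lower cells. *Kcnk3*, an acid-sensitive leak channel, was expressed in 29.2% of Agrp-high, 20.6% of Pomc-high and 32.1% of Pomc-lower cells, and its differences were 0.02 and -0.53. *Kcnk12*, a close relative of *Kcnk13*, was expressed in 37.5% of Agrp-high, 38.2% of Pomc-high and 20.99% of Pomc-lower cells, with differences of 0.58 and 0.79. *Kcnk10*, a relative of *Kcnk2*, gave 0.80 and -0.21, and *Kcnk6* gave 0.27 and -0.08.

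Promoters were read for 4 genes, chosen as the most widely held member (*Kcnk2*), the members with the largest differences upward in Agrp-high cells (*Kcnmb2* and *Kcnf1*) and a member at 0% of those cells that was past 1 in both comparisons (*Kcnk13*). The sequences are RefSeq windows of GRCm38.p6 from 250 bases before to 50 bases after a transcript start, written along the gene's strand. Capitals mark a match to a searched motif. *Kcnmb2* is on the plus strand at chr3:31902453-31902752, *Kcnf1* on the minus strand at chr12:17176839-17177138, *Kcnk13* on the plus strand at chr12:99964249-99964548, and *Kcnk2*, shown at 1 of its 4 annotated starts, on the minus strand at chr1:189343658-189343957.
Kcnmb2: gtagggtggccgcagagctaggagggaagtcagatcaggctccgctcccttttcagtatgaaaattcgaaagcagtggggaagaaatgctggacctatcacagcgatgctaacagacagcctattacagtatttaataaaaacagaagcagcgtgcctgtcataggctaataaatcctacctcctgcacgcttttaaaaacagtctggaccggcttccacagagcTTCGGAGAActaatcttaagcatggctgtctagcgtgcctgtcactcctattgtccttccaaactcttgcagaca
Kcnf1: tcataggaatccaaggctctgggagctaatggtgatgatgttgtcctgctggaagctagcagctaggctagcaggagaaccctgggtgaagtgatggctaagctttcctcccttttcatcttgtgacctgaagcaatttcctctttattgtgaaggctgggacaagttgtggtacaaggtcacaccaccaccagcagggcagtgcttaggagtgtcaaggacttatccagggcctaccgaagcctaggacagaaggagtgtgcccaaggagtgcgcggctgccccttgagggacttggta
Kcnk13: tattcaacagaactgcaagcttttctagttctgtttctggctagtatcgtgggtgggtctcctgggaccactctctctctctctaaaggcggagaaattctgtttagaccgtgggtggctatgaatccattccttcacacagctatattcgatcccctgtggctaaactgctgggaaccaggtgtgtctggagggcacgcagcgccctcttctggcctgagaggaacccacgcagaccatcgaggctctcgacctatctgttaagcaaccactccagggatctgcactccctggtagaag
Kcnk2: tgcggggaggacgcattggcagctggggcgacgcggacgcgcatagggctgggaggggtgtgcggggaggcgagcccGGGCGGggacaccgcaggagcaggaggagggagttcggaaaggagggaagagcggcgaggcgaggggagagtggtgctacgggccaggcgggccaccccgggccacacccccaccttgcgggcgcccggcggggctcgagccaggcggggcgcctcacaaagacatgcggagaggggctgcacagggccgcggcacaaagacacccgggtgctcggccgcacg
The *Kcnk2* window shown holds 33 CpG dinucleotides and its other starts 33, 3 and 6, the *Kcnmb2* and *Kcnk13* windows 9 each and the *Kcnf1* window 3, against a median of 7 over 32851 RefSeq promoters of this length and 10 over the 59 windows of the 41 members that matched. On both strands, the letters TTCNNNGAA of the STAT motif were found once in the *Kcnmb2* window and the GC box GGGCGG once in the *Kcnk2* window. That is the *Kcnk2* window shown, and the windows at its other starts held no match to a searched motif. The FOXO motif GTAAACA was in 0 of the 59 member windows and in 3.65% of all promoters, and the STAT motif in 6 of the 59 and in 8.30% of all. The GC box was in 29 of the 59 (35.7% of all promoters), the TATA box TATAAA in 2 (13.6% of all) and TTCAGCACC, one part of the REST site, in 1 (0.371% of all). No window shown holds more than 1 match, so none overlap. A match describes letters and not a site in use.

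Most neurons expressed more than 1 gene of the GIRK channels, inward rectifiers that G protein-coupled receptors open. At least 2 of the 4 subunit genes were expressed in 39 of 48 Agrp-high cells (81.3%, 67.4% to 91.1%), 24 of 34 Pomc-high cells (70.6%, 52.5% to 84.9%) and 46 of 81 Pomc-lower cells (56.8%, 45.3% to 67.8%). None of the 4 was expressed in 1 Agrp-high, 5 Pomc-high and 13 Pomc-lower cells. Such counts depend on the share of cells holding each gene, and joint occurrence beyond that was not tested. *Kcnj5* (ENSMUSG00000032034, chr9:32314782-32344237), the subunit best known from the heart, ran from -0.91 to 6.82 log2RPM with a median of 0.62 in Agrp-high cells, against -0.91 to 7.20 with a median of -0.51 in Agrp-low cells. It was expressed in 20 of 48 Agrp-high cells (41.7%, 27.6% to 56.8%), against 15 Agrp-low cells (13.04%, 7.49% to 20.6%), and the means differed by 1.92. The spans of the 2 groups were alike, and expressing cells were the more frequent in Agrp-high cells.

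*Kcnj3* (ENSMUSG00000026824, chr2:55433513-55598145), the subunit that needs a partner to reach the membrane, was the most widely expressed of the 4, in 83.3% of Agrp-high, 73.5% of Pomc-high and 59.3% of Pomc-lower cells. It ran from -0.91 to 8.15 log2RPM with a median of 5.43 in Pomc-high cells, against -0.91 to 8.96 with a median of 3.55 in Pomc-lower cells. The means differed by 1.17 and the spans overlapped almost wholly. The antisense gene *Gm26794* shares 31.1% of its exon bases. *Kcnj6*, which can form channels alone, was expressed in 47.9% of Agrp-high, 64.7% of Pomc-high and 50.6% of Pomc-lower cells, and *Kcnj9*, which joins other subunits, in 52.1%, 44.1% and 39.5% of the same ranges. Their differences stayed under 1. *Kcnj3* was found with *Kcnj6* in 63 cells, without it in 50 and the reverse in 23, and with *Kcnj9* in 54 cells, so 73.3% of *Kcnj6* cells also held *Kcnj3*, as did 54 of the 72 *Kcnj9* cells. Over all cells *Kcnj3* was expressed in 69.3%.

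Of 11 receptors known to open GIRK channels, *Htr1a* (1.80) and the GABA-B subunit *Gabbr2* (1.15) were higher and the neuropeptide Y receptor *Npy1r* (-2.16) lower in Agrp-high than in Agrp-low cells. In Pomc-high cells the opioid receptor *Oprm1* (1.23) was higher, and *Gabbr2* (-1.47) and the nociceptin receptor *Oprl1* (-1.32) lower, than in Pomc-lower cells. *Gabbr1*, the other GABA-B subunit, was expressed in 100% of Agrp-high, 94.1% of Pomc-high and 96.3% of Pomc-lower cells. Other inward rectifiers were rare: *Kcnj12* was expressed in 0 of 48 Agrp-high cells, which allows up to 6.25% by the limit of 3 cells (7.40% by the exact interval), in 1 of 34 Pomc-high cells and in 10 of 81 Pomc-lower cells, and *Kcnj14* in 4, 2 and 10 of the same ranges. The KATP pore gene *Kcnj11* was not analysed here, and its regulatory subunit *Abcc8* was expressed in 8 of 48 Agrp-high, 3 of 34 Pomc-high and 9 of 81 Pomc-lower cells.

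**Figure D3:**
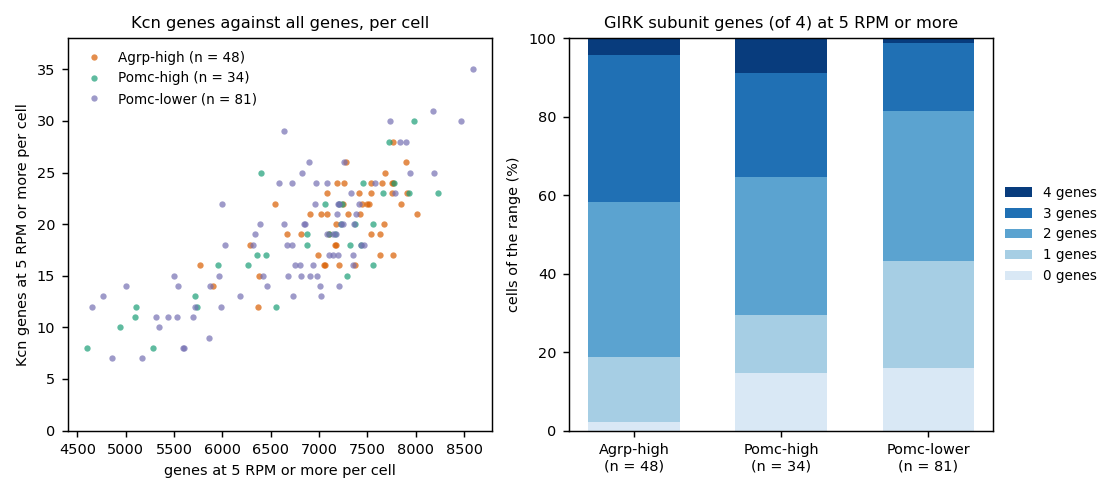
Left, number of *Kcn* genes against number of all genes at 5 RPM or more, 1 point per cell. Right, share of cells (%) with 0 to 4 of the GIRK genes *Kcnj3*, *Kcnj5*, *Kcnj6* and *Kcnj9*, where at least 2 were present in 81.3% of Agrp-high, 70.6% of Pomc-high and 56.8% of Pomc-lower cells.

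The Kv4 channels, which carry the fast A-type current, were found with several accessory genes. *Kcnd2* was expressed in 77.1% of Agrp-high, 64.7% of Pomc-high and 67.9% of Pomc-lower cells and *Kcnd3* in 77.1%, 70.6% and 60.5% of them, whereas *Kcnd1* was expressed in 12.3% of all cells. The calcium-binding Kv4 interacting proteins (KChIPs) were present in 97.5% of cells as a group of 4. *Kcnip1* led them with 91.7% of Agrp-high, 73.5% of Pomc-high and 86.4% of Pomc-lower cells. *Kcnip4* (ENSMUSG00000029088, chr5:48389501-49524904), another KChIP gene, ran from -0.38 to 8.97 log2RPM with a median of 6.09 in Agrp-high cells. In Agrp-low cells it ran from -0.91 to 9.09 with a median of 4.75. The cells overlapped over that whole span, and the means of 5.04 ± 2.67 and 3.95 ± 3.01 log2RPM differed by 1.09. *Kcnip1* (0.91) and *Kcnip2* (0.87) came just under the limit in the same direction, and *Kcnip3* gave -0.02.

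All cells with *Kcnd2* also expressed *Dpp6*, a membrane protein that speeds Kv4 gating and was present in 97.5% of all cells. *Kcnd2* was accompanied by *Kcnip4* in 80 cells and found without it in 34, and *Kcnd3* by *Kcnip1* in 95 and without it in 15. So 70.2% of *Kcnd2* cells held *Kcnip4*, beside 65.03% of all cells. Likewise 86.4% of *Kcnd3* cells held *Kcnip1*, beside 85.3% of all cells. Joint occurrence beyond these shares was not tested. The related accessory gene *Dpp10* was expressed in 42 of 48 Agrp-high cells (87.5%), against 36 Agrp-low cells (31.3%), a difference of 3.05 that was larger than that of any of the 58 *Kcn* genes. It was lower in Pomc-high cells, with 4 of 34 cells (11.8%) against 32 of 81 Pomc-lower cells (39.5%) and a difference of -2.20. So Kv4 pore genes differed by less than 1 in both comparisons while 1 accessory gene differed by far more.

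Among the Kv3 channels, which let neurons fire brief and frequent spikes, *Kcnc2* (ENSMUSG00000035681, chr10:112271122-112466304) ran from -0.64 to 8.37 log2RPM with a median of 5.58 in Agrp-high cells, against -0.91 to 8.20 with a median of 4.21 in Agrp-low cells. It was expressed in 85.4% of Agrp-high (72.2% to 93.9%) and 55.7% of Agrp-low cells (46.1% to 64.9%), and the means differed by 1.76. Within the Agrp-low cells, medians were 5.12 log2RPM in Pomc-high and 2.15 in Pomc-lower cells, with a difference in means of 1.25. Low cells were found in every range, most of them Pomc-lower. *Kcnc1*, the widest of the family with 80.4% of all cells, went the other way without passing 1, at -0.83 in Agrp-high and -0.41 in Pomc-high cells. *Kcnc4* (ENSMUSG00000027895, chr3:107438302-107458898), whose current inactivates, was expressed in 2 of 34 Pomc-high cells (5.88%, 0.72% to 19.7%), against 21 of 81 Pomc-lower cells (25.9%, 16.8% to 36.9%). Its values ran from -0.91 to 5.36 log2RPM with a median of -0.91 in Pomc-high cells, against -0.91 to 6.50 with a median of -0.63 in Pomc-lower cells, and the means differed by -1.06. Most cells of both ranges were at or near the lowest value.

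Among the Kv1 channels, some of which set spike threshold near the axon's start, *Kcna5* was the most widely expressed, in 60.1% of all cells. Its mean over all cells was 6.84 RPM per kb, followed by 4.66 for *Kcna3*. *Kcna5* (ENSMUSG00000045534, chr6:126532552-126698192, a locus the table gives to *Kcna1* as well) was expressed in 36 of 48 Agrp-high cells (60.4% to 86.4%) and in 53.9% of Agrp-low cells (44.4% to 63.2%). It ran from -0.91 to 6.41 log2RPM with a median of 3.85 in Agrp-high cells, against -0.91 to 7.33 with a median of 2.82 in Agrp-low cells, and the means differed by 1.08. Pomc-high cells had a median of 4.25 log2RPM, near that of Agrp-high cells, against 1.64 in Pomc-lower cells, and the difference between these 2 was 1.24. *Kcna4* (ENSMUSG00000042604, chr2:107290638-107298502), an A-type subunit, was expressed in 5 of 34 Pomc-high cells (14.7%, 4.95% to 31.1%), against 28 of 81 Pomc-lower cells (34.6%, 24.3% to 45.96%). Its values ran from -0.91 to 6.10 log2RPM with a median of -0.74 in Pomc-high cells, against -0.91 to 7.65 with a median of 0.34 in Pomc-lower cells, and the means differed by -1.40. The high cells overlapped and were fewer in the Pomc-high range. *Kcna1* and *Kcna2*, the usual axonal pair, were expressed in 9 and 14 of all cells and together in 3, all Pomc-lower. Neither was found at 5 RPM in the 34 Pomc-high cells, which allows a share of up to 8.82% by the limit of 3 cells (10.3% by the exact interval). *Kcna3* was expressed in 27.6% and *Kcna6* in 32.5% of all cells, and an antisense gene shares 39.6% of the exon bases of *Kcna6*.

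The Kv1 beta subunit gene *Kcnab1* (ENSMUSG00000027827, chr3:65109383-65378223), which gives Kv1 channels fast inactivation, was lower in Agrp-high cells. It was expressed in 3 of 48 Agrp-high cells (6.25%, 1.31% to 17.2%), against 41 Agrp-low cells (35.7%, 26.9% to 45.1%). Values ran from -0.91 to 7.26 log2RPM with a median of -0.38 in Agrp-high cells, against -0.91 to 7.95 with a median of 0.17 in Agrp-low cells, and the means differed by -1.62. The 3 expressing Agrp-high cells lay within the span of the Agrp-low cells. Pomc-high cells held it most often, in 17 of 34 (50.0%), against 24 of 81 Pomc-lower cells (29.6%), with a difference in means of 0.67. *Kcnab2* and *Kcnab3* gave -0.18 and 0.31 between Agrp-high and Agrp-low cells. Of 9 clustering and partner proteins of Kv1 and Kv2 channels, the secreted *Lgi1* was higher in Agrp-high cells (1.27). In Pomc-high cells the scaffold *Dlg4* was higher (1.31) and *Cntnap2*, which anchors Kv1 beside the nodes of Ranvier, lower (-1.24).

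The Kv2 pore gene *Kcnb2*, which carries slow delayed rectifier current, was expressed in 25.2% of all cells, with differences of -0.27 in Agrp-high and 0.24 in Pomc-high cells. The silent subunits form no channel alone and modify Kv2. One of them, *Kcnf1* (ENSMUSG00000051726, chr12:17172101-17176888), was expressed in 32 of 48 Agrp-high cells (66.7%, 51.6% to 79.6%), against 33 Agrp-low cells (28.7%, 20.6% to 37.9%). It ran from -0.91 to 6.85 log2RPM with a median of 4.16 in Agrp-high cells, against -0.91 to 7.998 with a median of 0.16 in Agrp-low cells, and the means of 3.47 ± 2.48 and 1.34 ± 2.57 differed by 2.13. Pomc-high (32.4%) and Pomc-lower cells (27.2%) were alike in share, with a difference in means of 0.12. *Kcng2*, *Kcns2* and *Kcnv1*, the other silent subunits, had differences of 0.30, -0.14 and 0.22 between Agrp-high and Agrp-low cells.

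Of the Kv7 genes behind the M-current, which damps repeated firing, *Kcnq3* was expressed in 8.33% of Agrp-high, 5.88% of Pomc-high and 12.3% of Pomc-lower cells, with differences of -0.06 and -0.38. *Kcnq5* was expressed in 12 of 48 Agrp-high, 3 of 34 Pomc-high and 13 of 81 Pomc-lower cells, with differences of 0.59 and -0.42.

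The EAG, ERG and ELK family had a gene higher and a gene lower in Agrp-high cells. *Kcnh8* (ENSMUSG00000035580, chr17:52602762-52979033), an ELK channel, was expressed in 34 of 48 Agrp-high cells (70.8%, 55.9% to 83.05%), against 41 Agrp-low cells (35.7%, 26.9% to 45.1%). It ran from -0.91 to 7.10 log2RPM with a median of 3.30 in Agrp-high cells, against -0.91 to 8.51 with a median of 0.06 in Agrp-low cells, a difference in means of 1.69. *Kcnh7* (ENSMUSG00000059742, chr2:62664284-63184287), an ERG channel, ran from -0.91 to 6.78 log2RPM with a median of 1.09 in Agrp-high cells, against -0.91 to 9.80 with a median of 1.83 in Agrp-low cells. The spans overlapped, the gene was expressed in 12 of 48 Agrp-high cells (13.6% to 39.6%) and in 46.1% of Agrp-low cells (36.8% to 55.6%), and the means differed by -1.004, at the limit itself. *Kcnh6*, a second ERG gene, gave 0.89 in the opposite direction, and *Kcnh2*, the third, 0.13. *Kcnh1*, *Kcnh4* and *Kcnh5* were expressed in 10.4%, 12.9% and 9.82% of all cells.

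The BK pore gene *Kcnma1*, a channel opened by calcium and depolarisation together, was expressed in 72.9% of Agrp-high, 55.9% of Pomc-high and 59.3% of Pomc-lower cells, with differences of 0.19 and -0.31. Its accessory gene *Kcnmb2* (ENSMUSG00000037610, chr3:31902506-32200180), which makes BK currents inactivate, had the largest difference of the 58 members between Agrp-high and Agrp-low cells. It was expressed in 19 of 48 Agrp-high cells (39.6%, 25.8% to 54.7%), against 7 Agrp-low cells (6.09%, 2.48% to 12.1%). It ran from -0.91 to 7.41 log2RPM with a median of 0.52 in Agrp-high cells, against -0.91 to 7.53 with a median of -0.91 in Agrp-low cells, and the means of 1.79 ± 2.86 and -0.40 ± 1.24 differed by 2.19. One Agrp-low cell, a Pomc-high one, reached the highest value of all, and the Pomc-lower cells stayed at or under 3.77 log2RPM. *Kcnmb4*, the neuronal BK accessory gene, was expressed in 12.5% of Agrp-high, 17.6% of Pomc-high and 28.4% of Pomc-lower cells. It accompanied *Kcnma1* in 21 cells, against 81 cells with *Kcnma1* alone. So 20.6% of *Kcnma1* cells held *Kcnmb4*, beside 21.5% of all cells. *Kcnu1*, a pore gene known from sperm, was expressed in 14.1% of all cells.

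Small-conductance (SK) channel genes, which shape the pause after a spike, were expressed in few cells, *Kcnn2* in 12.3% and *Kcnn3* in 22.7% of all. The sodium-activated channel gene *Kcnt1* (ENSMUSG00000058740, chr2:25863794-25918273), which follows sodium entry during bursts, was lower in Pomc-high cells. It was expressed in 3 of 34 Pomc-high cells (8.82%, 1.86% to 23.7%), against 34 of 81 Pomc-lower cells (41.98%, 31.1% to 53.5%). Values ran from -0.91 to 6.07 log2RPM with a median of -0.68 in Pomc-high cells, against -0.91 to 7.87 with a median of 1.15 in Pomc-lower cells, and the means of 0.07 ± 1.77 and 2.27 ± 2.87 differed by -2.20. Agrp-high cells expressed it in 41.7%, close to the Pomc-lower share. Over the Agrp-low cells its level had a Spearman correlation of -0.42 with that of *Pomc*, the strongest negative one among the 17 named genes, in cells that share 1 table and that the *Pomc* limit also divides. Its relative *Kcnt2* gave 0.35 in the same comparison, with 32.4% of Pomc-high and 22.2% of Pomc-lower cells.

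*Kcne1l* (ENSMUSG00000090122, chrX:142304751-142306294), a small regulatory subunit of the Kcne family, was expressed in 20 of 48 Agrp-high cells (41.7%, 27.6% to 56.8%), against 17 Agrp-low cells (14.8%, 8.85% to 22.6%). It ran from -0.91 to 7.59 log2RPM with a median of 0.10 in Agrp-high cells, against -0.91 to 6.93 with a median of -0.58 in Agrp-low cells, and the means differed by 1.62. The spans of both groups overlapped, and expressing cells were the more frequent in Agrp-high cells, by 41.7% against 14.8%.

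Levels of these genes were weakly related from cell to cell. Over the 465 pairs of the 31 members expressed in at least 25% of cells, the Spearman correlation over all cells had a median of 0.06 and ran from -0.22 to 0.33, and 4 pairs reached 0.3. All points share the depth and detection limit of their cell, and no p is given. Of the 9 members higher in Agrp-high cells, an Agrp-high cell expressed 2 to 9 with a median of 6, a Pomc-high cell 1 to 8 with a median of 5 and a Pomc-lower cell 1 to 7 with a median of 3, and the genes were chosen on the first of these contrasts.

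The differences were not equally stable over the cell numbers in the labels, which were divided into cells 1 to 66, 67 to 98 and 99 to the last. The runs hold 32, 5 and 11 Agrp-high cells, 8, 9 and 17 Pomc-high cells and 26, 18 and 37 Pomc-lower cells, and the labels do not say whether they were prepared apart. *Kcnf1* was at least 1 higher in Agrp-high cells within each run (1.53, 2.17 and 2.03), as were *Kcnk2* (2.005, 1.42 and 1.49) and *Kcnj5* (1.11, 2.66 and 3.23). *Kcnk13* was at least 1 lower in each (-1.15, -2.53 and -1.46). *Kcnmb2* gave 2.25, -0.20 and 2.97, *Kcnc2* 1.10, -0.97 and 3.24, *Kcnh8* 1.402, 0.09 and 2.56, *Kcne1l* 1.32, 0.68 and 2.48, and *Kcnab1* -1.89, -0.21 and -1.94, where the middle values rest on 5 Agrp-high cells. *Kcnip4* passed 1 in the middle run alone (0.90, 2.07 and 0.86), and *Kcna5* (0.95, 1.32 and 1.11) and *Kcnh7* (-0.87, -1.14 and -1.75) missed it in the first. In Pomc-high cells *Kcnt1* was lower in each run (-1.85, -3.01 and -1.87), while *Kcna4* (-0.86, -2.27 and -1.14) missed 1 in the first run and *Kcnc4* (-0.89, -0.96 and -1.14) in the first and the middle one. The 5 members higher in Pomc-high cells all stayed under 1 within cells 99 to the last, at 0.31 for *Kcnk13*, 0.90 for *Kcnk1*, 0.35 for *Kcnc2*, 0.84 for *Kcna5* and 0.70 for *Kcnj3*, and were over 1 in the other runs. Whether a batch lies behind these runs was not tested.

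**Figure D4:**
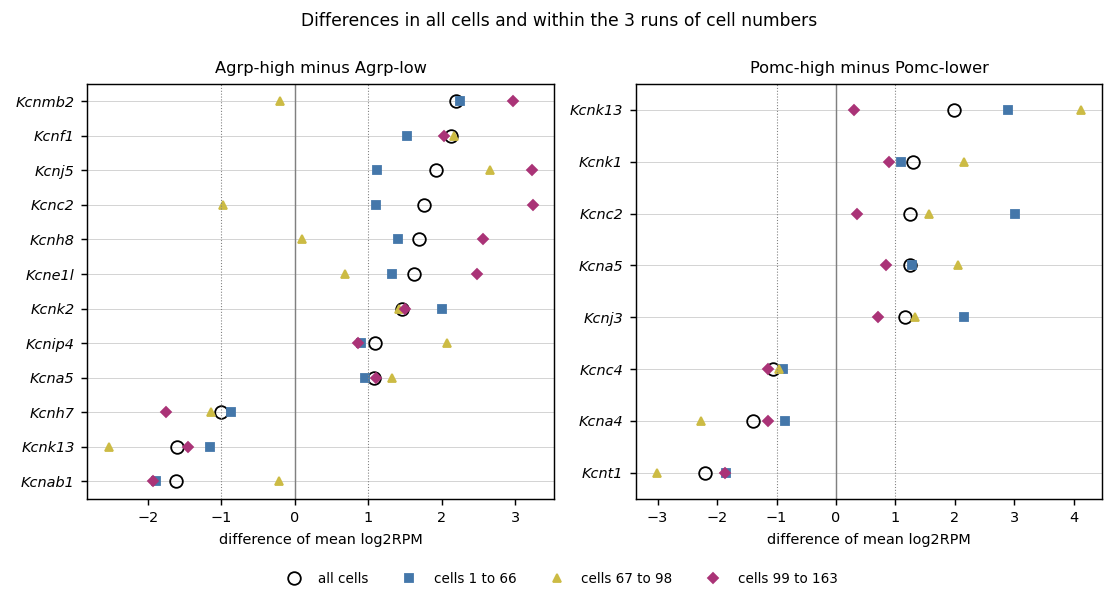
Difference of mean log2RPM in all cells (open circles) and within cells 1 to 66, 67 to 98 and 99 to the last (filled symbols), for Agrp-high minus Agrp-low cells on the left and Pomc-high minus Pomc-lower cells on the right. Dotted lines mark a difference of 1 in size, and *Kcnc2* lies at -0.97 within cells 67 to 98 on the left.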

How the data were processed

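Single GFP-sorted neurons were reverse transcribed and amplified with the SMART-Seq v4 kit, and Nextera XT libraries were sequenced as single-end reads. Per the labels and the paper's methods, the authors used CASAVA 1.7, TopHat2 2.0.11 on GRCm38, Cufflinks 2.2.1, edgeR and limma. The values were deposited by the authors as log2 RPM with a prior count. The methods also name a batch correction, and whether the table holds it is not given in the sources used here. The table keeps whole-read steps and 1 common lowest value, which shifts on the log scale would not leave.

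The values were used as given. Depth per cell was read from the spacing of low values: 99.3% of values worth 1 to 20 reads were whole reads to within 0.1. Members were matched to GENCODE and RefSeq by identifier and symbol, for exon length and promoters. Of the 58 members, 21 share exon bases with another annotated gene, nearly all on the opposite strand. Differences of means were computed over all 12187 genes with Python 3.11.15, numpy 2.4.6, pandas 2.3.3, scipy 1.17.1 and matplotlib 3.10.9. The steps were first run on simulated data. Shifts were placed there only in genes with reads in most cells, so that run does not cover shifts in genes held by few cells. The labels give 1 group and no animal, so no test was run.

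Some members, counted in the totals, are not reported here by name or value. Members, ranges and lists were chosen with earlier results of these data known. Named genes are members differing by at least 1 that reached 5 RPM in 25% or more of the higher range's cells (*Kcnk13*, at 23.5% of Agrp-low cells, qualifies by the Pomc comparison), members in at least 90% or under 10% of cells, members of subunit pairs, examples of each subfamily, and partner genes past 1. Alternatives were other pseudocounts (0.1 and 5 RPM), cut-offs (1 and 10 RPM), *Agrp* limits (8 and 11) and *Pomc* limits (11 and 13). Others were only genes found in 10% of cells, omitting cells with 3 oligodendrocyte or 3 pituitary markers, and rescaling. The rest were thinning to 3.23 M reads (9 shallower cells left out), medians, and the runs of cell numbers.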

Additional observations from a re-analysis of the deposited data

How the results depend on the processing

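Of the named differences, *Kcnf1* and *Kcnk2* (Agrp-high minus Agrp-low) and *Kcnt1* (Pomc-high minus Pomc-lower) stayed past 1 in all 12 alternatives. These 12 include taking only genes found in 10% of cells, which cannot change the difference of a single gene. Counts of members past 1 depended most on the value added for low levels and on the cells taken. The share of all genes past 1 is given in parentheses. With 5 RPM added, 4 (2.54%) were higher and 0 (1.15%) lower in Agrp-high cells, and 1 (1.33%) higher and 1 (0.919%) lower in Pomc-high cells, while 0.1 RPM gave 7 (9.39%) lower in Pomc-high cells. With medians, 0 (3.32%) were lower in Agrp-high and 8 (8.44%) higher in Pomc-high cells. A *Pomc* limit of 11 gave 1 (3.96%) and of 13 gave 6 (6.95%) lower. Within cells 1 to 66, 67 to 98 and 99 to the last, the lower members in Agrp-high cells numbered 5 (5.97%), 7 (19.5%) and 6 (6.96%), and 17 (16.6%) were higher in the last run. In Pomc-high cells 13 (16.3%), 16 (14.1%) and 3 (8.89%) were higher and 11 (10.9%), 7 (17.1%) and 7 (10.8%) lower within the same runs, which hold 8 to 17 Pomc-high cells. None of the 3 higher ones in the last run was among the 5 of all cells. The direction turned for *Kcnc2* (-0.97) and *Kcnmb2* (-0.20) within cells 67 to 98, and the *Kcnk13* difference in Agrp-high cells was 0.00 between medians. At 1 RPM the median number of *Kcn* genes was 32 in Agrp-high, 26 in Pomc-high and 28 in Pomc-lower cells, and at 10 RPM 17.5 in Agrp-high cells. The cause of these shifts was not tested. A gene at 5 RPM rests on fewest reads in the shallowest cell (1.46 M reads).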
